A study of Danio rerio with 2 samples.

Results

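Open chromatin was examined at the genes of the Hedgehog pathway in the embryonic zebrafish heart. The gene set held the ligand genes *shha*, *shhb*, *ihha* and *ihhb*, the receptor gene *ptch1*, the transducer gene *smo* and the transcription factor genes *gli1*, *gli2a* and *gli3*. A region belonged to the set when its deposited gene list named one of these 9 genes. This gave 39 of 41473 regions, spread over 8 genes, and *shhb* was named by no region in the table. In all, 22038 genes were named by at least 1 region.

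The regions came from ATAC-seq, an assay that uses a transposase to insert sequencing adapters where DNA is accessible. One library was made from hearts of *hos* (heart of stone) mutants and 1 from hearts of siblings, which carry the genotype label wt, both at 96 h post fertilization. The title of the series connects the line with Smarce1, which belongs to the SWI/SNF complex that remodels chromatin, so the comparison asks which regions were more or less accessible in mutant hearts than in sibling hearts. The line of both groups carried Tg(*myl7*:GFP), a reporter driven by a cardiomyocyte promoter, and the protocol names 60 hearts without saying whether this is per library. The labels do not say whether heterozygous carriers were among the siblings.

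The labels name the heart as tissue and cardiomyocytes as cell type. No sort is named, and a dissected heart contains endocardium and epicardium besides muscle. A difference in signal can come from the share of cells of one type or from access per cell, and with bulk tissue these cannot be told apart. With 1 library per genotype there is no replicate check and no p-value, and every difference below is one between these 2 libraries. The intervals on folds, shares and medians cover counting error only, or treat regions as independent, and leave out variation between libraries.

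Hedgehog ligands are secreted proteins that bind the receptor Patched1. Without ligand, Patched1 holds the membrane protein Smoothened inactive, and Gli proteins are processed into repressors. With ligand, Smoothened gathers in the primary cilium and full-length Gli proteins switch on target genes, among which *ptch1*, *hhip* and *gli1* feed back on the pathway. In zebrafish, Hedgehog signaling promotes the formation of cardiomyocytes in the early embryo and has been tied to cardiomyocyte proliferation in the regenerating heart.

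The whole table sets the scale for these genes. An estimated 4748194 tags of the *hos* mutant library and 4091429 of the sibling library fell in the regions, so the common fold was 1.16. The median log2 ratio of mutant over sibling signal, computed on the average signal plus 1, was 0.15 over all regions, 0.25 over promoter regions within 1000 bp of a gene start, and 0.02 over regions inside genes. The common fold weights regions by their tags, so it is not matched to genes whose regions lie mostly inside them. A region is in the table when an interval was called in at least 1 library, so a weak region called in 1 library alone tends by construction to be lower in the other.

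Across the 39 Hedgehog regions the 2 libraries were close to the general offset. The median log2 ratio was 0.17 (95% interval -0.11 to 0.29), and the standard deviation was 0.64 against 0.57 over all regions. There were 25 regions above 0 and 14 below, where 62.0% of all regions were above 0. Summed over the set, there were 3230 tags in the mutant library and 3054 in the sibling library, a fold of 1.06 (exact binomial 95% interval 1.01 to 1.11), which lies under the common fold of 1.16. At least 2-fold higher signal in the mutant was seen in 1 of 39 regions (2.56%, exact interval 0.0649 to 13.5), against 3.32% of all regions. At least 2-fold lower signal was seen in 4 of 39 (10.3%, 2.87 to 24.2), against 4.83% of all regions. Both intervals hold the share over all regions.

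All 5 regions past 2-fold lay inside Gli genes, far from their starts, and each was called in 1 library alone. Such calls were the rule in the whole table. Of 2005 regions at least 2-fold lower, 1971 were called in the sibling alone. Of 1378 at least 2-fold higher, 1277 were called in the mutant alone. By role, the median log2 ratio was -0.05 over 6 regions of the ligand genes, 0.30 over 10 regions of *ptch1* and *smo*, of which 9 were above 0, and 0.08 over 23 regions of the Gli genes, of which 13 were above 0 and 10 below. Of all regions, 62.0% were above 0. No region of the ligand genes, *ptch1* or *smo* passed 2-fold on this scale.

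**Figure D1:**
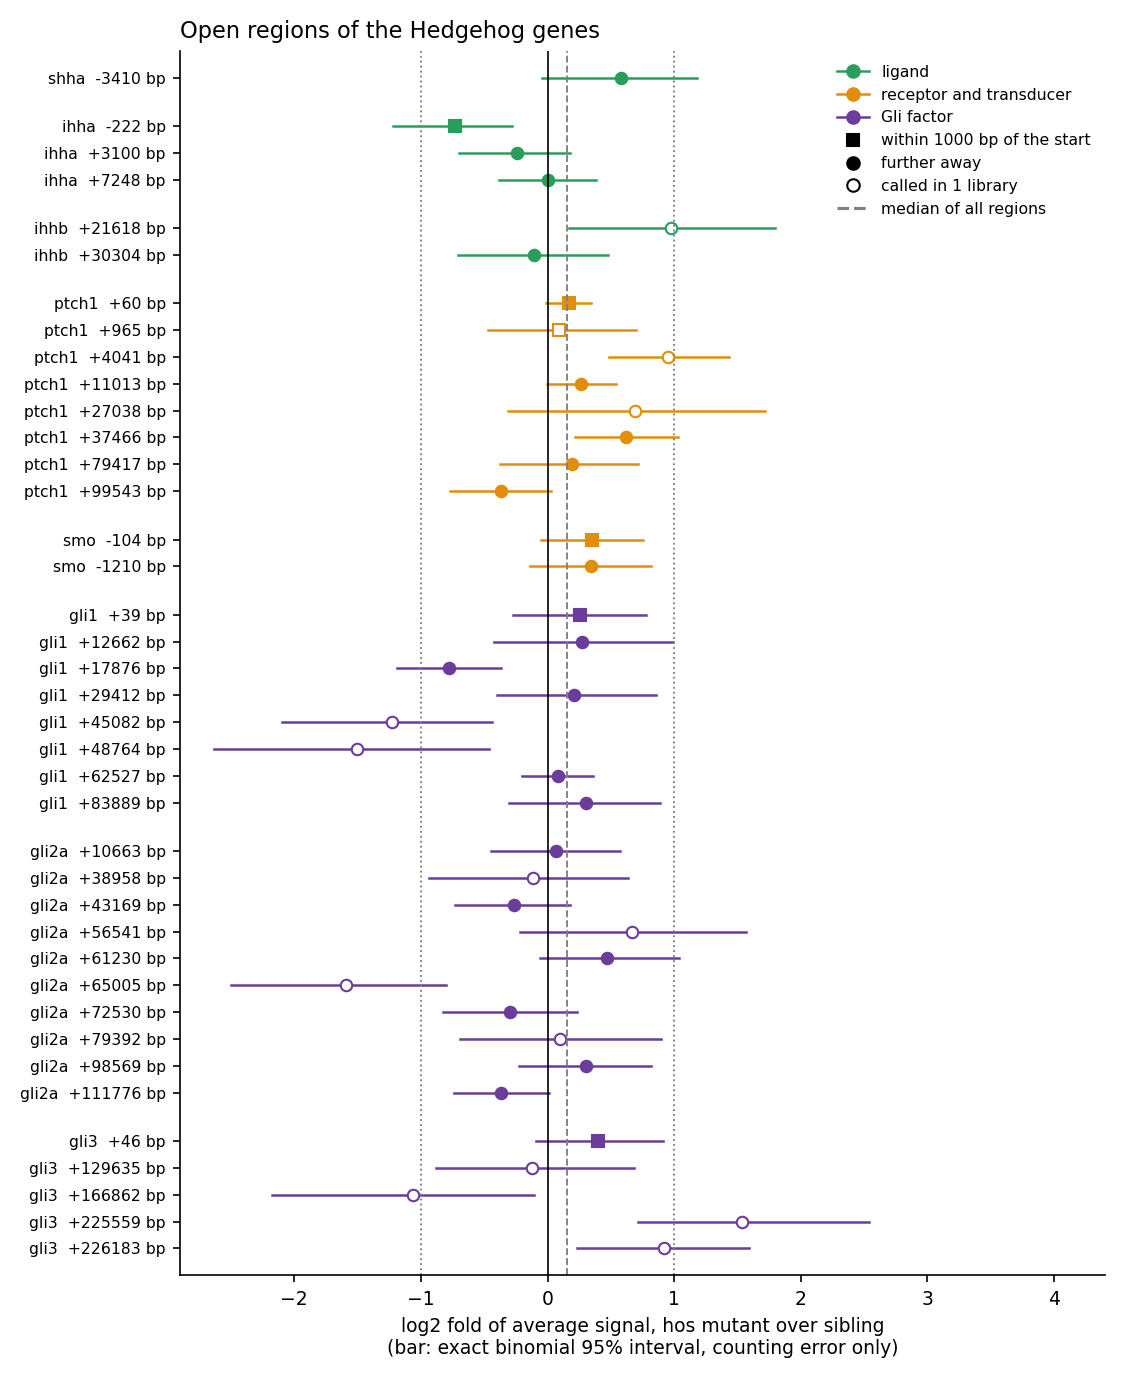
Log2 fold of average signal, hos mutant over sibling, for each of the 39 Hedgehog regions, labelled by gene and by distance from the gene start. Bars are exact binomial 95% intervals for counting error, squares lie within 1000 bp of the start, open symbols were called in 1 library, the dashed line is the median log2 ratio of all regions (0.15) and dotted lines mark 2-fold. Most regions of ptch1 and smo lie right of 0, and the 4 regions furthest left belong to gli1, gli2a and gli3.

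Most of the regions were intragenic. Of the 39, 33 lay inside their gene, 4 upstream and 2 downstream, and 29 lay inside the gene over 1000 bp from its start, 20 of these in Gli genes. Only 6 lay within 1000 bp of the start of their own gene, in *ihha*, *ptch1*, *smo*, *gli1* and *gli3*. Of all 41473 regions, 14694 lay within 1000 bp of a gene start and 17140 inside a gene over 1000 bp from any start. Counts in the set use the distance to the member gene, and those of the whole table the distance to any gene start. By the latter rule *ihhb* at 30304 bp and *gli3* at 225559 and 226183 bp would be promoter regions of other genes. By either rule the set held a larger share of inner regions and a smaller share of promoter regions than the whole table. The median length was 361 bp (range 200 to 717), against 359 bp for all regions. A CpG island was annotated in 3 of the 39 (7.69%), 2 at the *ptch1* start and 1 at the *ihha* start, against 10.6% of all regions. All 3 were among the 6 regions within 1000 bp of the start, and 22.9% of all promoter regions held an island. The deposited gene lists reached at most 10475 bp upstream of a start, so enhancers further from a gene, such as those known for *shh* in other vertebrates, would not be counted here.

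**Figure D2:**
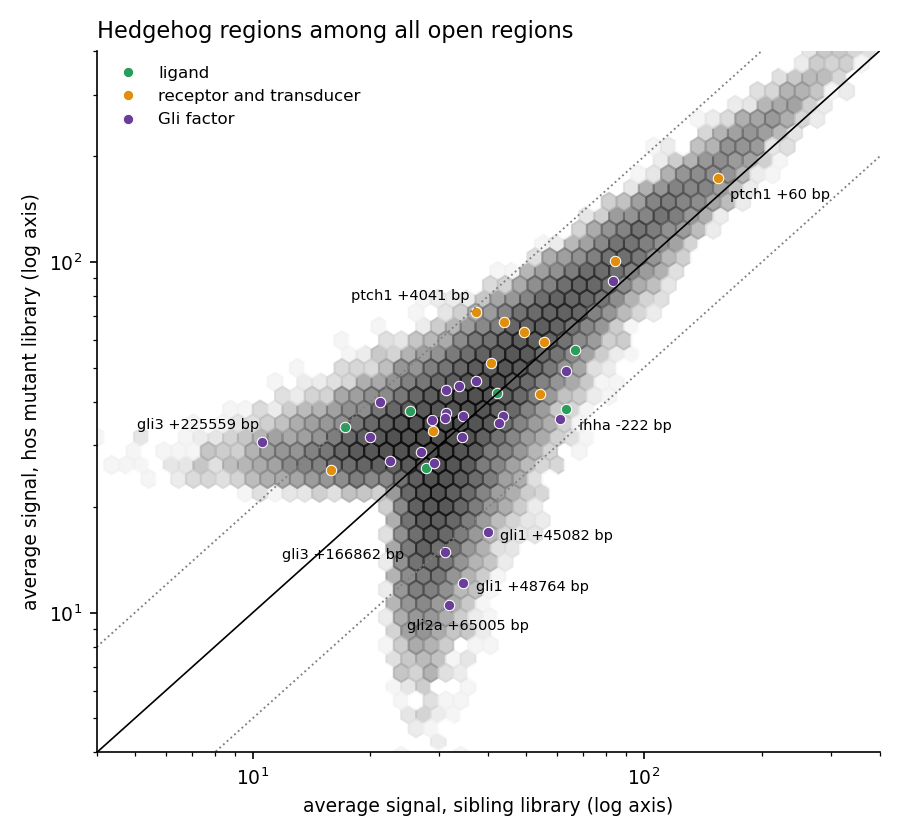
Average signal in the hos mutant library (vertical, log axis) against the sibling library (horizontal, log axis) for the Hedgehog regions, coloured by role, over all regions in grey, darker where more regions fall. The solid line marks equal signal and dotted lines 2-fold, and the ptch1 promoter region, with 173 in the mutant library and 154 in the sibling library, is the strongest of the set.

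*shha* encodes Sonic hedgehog, the ligand of the notochord, floor plate and endoderm. Its single region lay 3410 bp upstream of the start (chromosome 7, 40880426 to 40880779) and had an average signal of 37.6 in the mutant library and 25.2 in the sibling library. That is 1.49-fold higher in the mutant (0.971 to 2.26), a log2 ratio of 0.56, and the interval holds both 1 and the common fold. No region lay at the *shha* start itself.

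*ihha* encodes an Indian hedgehog, a ligand best known from cartilage and bone. Its promoter region, 222 bp upstream of the start (chromosome 9, 7358344 to 7358711), had 38.1 in the mutant library and 63.2 in the sibling library, 1.66-fold lower in the mutant (1.21 to 2.34) with a log2 ratio of -0.72. It was called in both libraries. It was the only one of the 6 promoter regions of the set with a lower signal in the mutant, and its ratio stood at percentile 2.21 among the promoter regions of the whole table. No other gene was assigned to this region.

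The other regions of *ihha*, which are also assigned to the solute carrier gene *slc23a3*, differed less. At 3100 bp the signal was 56.3 in the mutant library and 66.6 in the sibling library, a fold of 0.845 (0.616 to 1.13) whose interval holds 1 and lies under the common fold. At 7248 bp it was 42.2 in the mutant library and 42.0 in the sibling library. Over the 3 regions the summed tags were 261 in the mutant library and 317 in the sibling library, a fold of 0.823 (0.696 to 0.973), so the lower signal of the gene came mainly from its start.

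*ihhb*, the second Indian hedgehog gene, showed the opposite sign at its stronger difference. The region 21618 bp from the start, near the end of the gene, had 33.8 in the mutant library and 17.2 in the sibling library, 1.96-fold higher (1.13 to 3.48) with a log2 ratio of 0.93, and was called in the mutant alone. The second region, at 30304 bp and downstream of *ihhb*, had 25.9 in the mutant library and 27.8 in the sibling library. Both regions are also assigned to *bin1b*, a gene for a membrane-shaping protein, and the second lies 252 bp from the *bin1b* start. Summed over both, the fold was 1.22 (0.884 to 1.68).

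*ptch1*, the receptor and a direct target of the pathway, had the strongest signal of the set. Its promoter region, 60 bp from the start (chromosome 8, 29962327 to 29963044), had 173 in the mutant library and 154 in the sibling library, with peak signals of 339 and 297 in the same order. The fold was 1.12 (0.993 to 1.27), a log2 ratio of 0.17, close to the offset of all regions. A neighbouring region at 965 bp had 59.0 in the mutant library and 55.4 in the sibling library, and was called in the sibling alone although its signal was the higher in the mutant. Of all regions in the series, 1.41% of those called in the sibling alone had a higher signal in the mutant, so a call in 1 library does not always give the direction of the signal.

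Inside *ptch1*, 5 of 6 regions over 1000 bp from the start had a higher signal in the mutant library. Of all 18291 pairs of a gene and a region inside it over 1000 bp from its start, 9492 did. The largest difference was at 4041 bp (chromosome 8, 29966488 to 29966844), with 72.0 in the mutant library and 37.3 in the sibling library, 1.93-fold higher (1.40 to 2.69) and called in the mutant alone. At 37466 bp (29999873 to 30000310) the signal was 67.5 in the mutant library and 43.9 in the sibling library, 1.54-fold higher (1.16 to 2.04), and this region was called in both. Both intervals lie above the common fold, the one at 37466 bp only just. An interval above the common fold was found for 4 regions of the set (10.3%) and for 10.5% of all regions. An interval under it was found for 10 regions of the set (25.6%) and for 19.2% of all regions.

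The remaining *ptch1* regions differed less or had few tags. At 27038 bp the signal was 25.6 in the mutant library and 15.9 in the sibling library (log2 ratio 0.66, called in the mutant alone), from 24 and 15 tags in the same order, and the interval of the fold ran from 0.806 to 3.28. At 11013 bp it was 101 in the mutant library and 84.1 in the sibling library (0.26), and at 79417 bp 32.9 and 28.8 in that order (0.18). The last region, at 99543 bp, went the other way, with 42.1 in the mutant library and 54.4 in the sibling library (-0.36).

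Taken over the 6 inner regions, *ptch1* had 677 tags in the mutant library and 545 in the sibling library, a fold of 1.24 (1.11 to 1.39) whose interval holds the common fold. Their median log2 ratio was 0.44, against 0.03 over all 18291 pairs of a gene and a region inside it over 1000 bp from its start. The *ptch1* regions were stronger, with median signals of 54.8 (mutant) and 40.6 (sibling) against 30.9 and 31.2 in that order. After lowess centring, which removes the trend of the ratio with mean signal, the medians were 0.26 and -0.04. Over all 8 regions the fold was 1.18 (1.09 to 1.28), and the median log2 ratio of 0.22 stood at percentile 63.6 among the 2723 genes with 5 or more regions.

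*smo*, the gene for the transducer that Patched1 restrains, had 2 regions, both upstream and both called in each library. The promoter region, 104 bp upstream of the start (chromosome 4, 14971177 to 14971607), had 63.1 in the mutant library and 49.4 in the sibling library, 1.28-fold higher (0.966 to 1.68), with a log2 ratio of 0.35. At 1210 bp upstream the signal was 51.7 in the mutant library and 40.7 in the sibling library, a log2 ratio of 0.34. Their summed fold was 1.27 (1.03 to 1.57), which holds the common fold, and both regions are also assigned to *tspan33a*, a tetraspanin gene.

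*gli1*, an activator and itself a target of the pathway, held 2 of the 4 regions that were at least 2-fold lower in the mutant. Its promoter region, 39 bp from the start (chromosome 6, 59505343 to 59505757), had 37.2 in the mutant library and 31.2 in the sibling library, a log2 ratio of 0.25 that equals the median of all promoter regions. Of the 6 regions further inside the gene, 3 were lower in the mutant, and the other 3 were not.

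The 3 lower regions stood between 17876 and 48764 bp from the *gli1* start. At 45082 bp (59460382 to 59460632) the signal was 17.0 in the mutant library and 39.9 in the sibling library, 2.35-fold lower in the mutant (1.36 to 4.29), a log2 ratio of -1.18. At 48764 bp (59456725 to 59456925) it was 12.2 in the mutant library and 34.5 in the sibling library, 2.84-fold lower (1.38 to 6.21), a log2 ratio of -1.43, from 11 and 31 tags in the same order. Both were called in the sibling alone.

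The region at 17876 bp (59487461 to 59487966) was called in both libraries and rests on more tags, 80 in the mutant library and 137 in the sibling library. Its signal was 35.6 in the mutant and 60.9 in the sibling, 1.71-fold lower (1.29 to 2.29), a log2 ratio of -0.76. Between and around these 3, the regions at 12662, 29412 and 62527 bp had log2 ratios of 0.26, 0.21 and 0.08. The strongest *gli1* region, at 62527 bp, had 88.2 in the mutant library and 83.4 in the sibling library, and the region downstream of the gene, at 83889 bp, had 35.5 and 28.7 in that order. Summed over the gene the fold was 0.908 (0.807 to 1.02), an interval that holds 1 and lies under the common fold of 1.16. Of 475 genes with 8 to 10 regions, 37 (7.79%) had 2 or more regions at least 2-fold lower, as *gli1* had.

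*gli2a* encodes a Gli factor that acts mainly as an activator. It had 10 regions, all inside the gene, and none within 1000 bp of the annotated start. The log2 ratios fell on both sides of 0, with 5 above and 5 below and a median of -0.02, and the summed fold was 0.921 (0.819 to 1.04), an interval that also holds 1 and lies under the common fold.

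One *gli2a* region stood apart from the other 9. At 65005 bp (chromosome 9, 37206658 to 37207025) the signal was 10.5 in the mutant library and 31.7 in the sibling library, 3.01-fold lower in the mutant (1.74 to 5.64), a log2 ratio of -1.50, which was the lowest of the 39. It was called in the sibling alone. The region nearest to it before this point, at 61230 bp, had 43.3 in the mutant library and 31.3 in the sibling library (0.46), so neighbouring regions of the gene differed in sign.

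Among the other *gli2a* regions, 3 were called in the mutant alone. At 56541 bp the signal was 31.7 in the mutant library and 20.0 in the sibling library (0.64, fold interval 0.860 to 2.97), at 79392 bp 28.8 and 26.9 in that order, and at 38958 bp 31.7 and 34.3. The last of these had the higher signal in the sibling despite its call, which was so for 0.828% of all regions called in the mutant alone. At 111776 bp, the strongest region of the gene in both libraries, the signal was 49.0 in the mutant library and 63.2 in the sibling library (-0.36). The remaining 4, at 10663, 43169, 72530 and 98569 bp, had log2 ratios from -0.29 to 0.29.

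*gli3* encodes the Gli factor that is the main repressor of the pathway, and its 5 regions differed most among themselves. The promoter region, 46 bp from the start (chromosome 24, 11821297 to 11821704), had 44.4 in the mutant library and 33.6 in the sibling library, 1.32-fold higher (0.941 to 1.88), a log2 ratio of 0.39. The 4 other regions were all called in 1 library alone, 2 in each.

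Both *gli3* regions called in the mutant lay next to each other deep in the gene. At 225559 bp (11595824 to 11596151) the signal was 30.7 in the mutant library and 10.6 in the sibling library, 2.90-fold higher (1.64 to 5.79), the highest log2 ratio of the set at 1.45. At 226183 bp (11595205 to 11595521) it was 39.9 in the mutant library and 21.1 in the sibling library, 1.89-fold higher (1.18 to 3.01), a log2 ratio of 0.89. These regions are also assigned to LOC101884290, an unnamed gene model whose start lies 655 bp from the region at 225559 bp and 31 bp from the one at 226183 bp, so they are promoter regions of that model as well as inner regions of *gli3*. Without regions shared with another gene, no region of the set was at least 2-fold higher.

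The *gli3* regions called in the sibling had few tags. At 166862 bp (11654584 to 11654784) the signal was 14.9 in the mutant library and 31.0 in the sibling library, 2.09-fold lower in the mutant (1.08 to 4.53), a log2 ratio of -1.01, from 13 and 28 tags in the same order. This is just past 2-fold. At 129635 bp it was 26.7 in the mutant library and 29.1 in the sibling library (-0.12). The summed fold over the 5 regions was 1.36 (1.11 to 1.67), and holds the common fold.

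**Figure D3:**
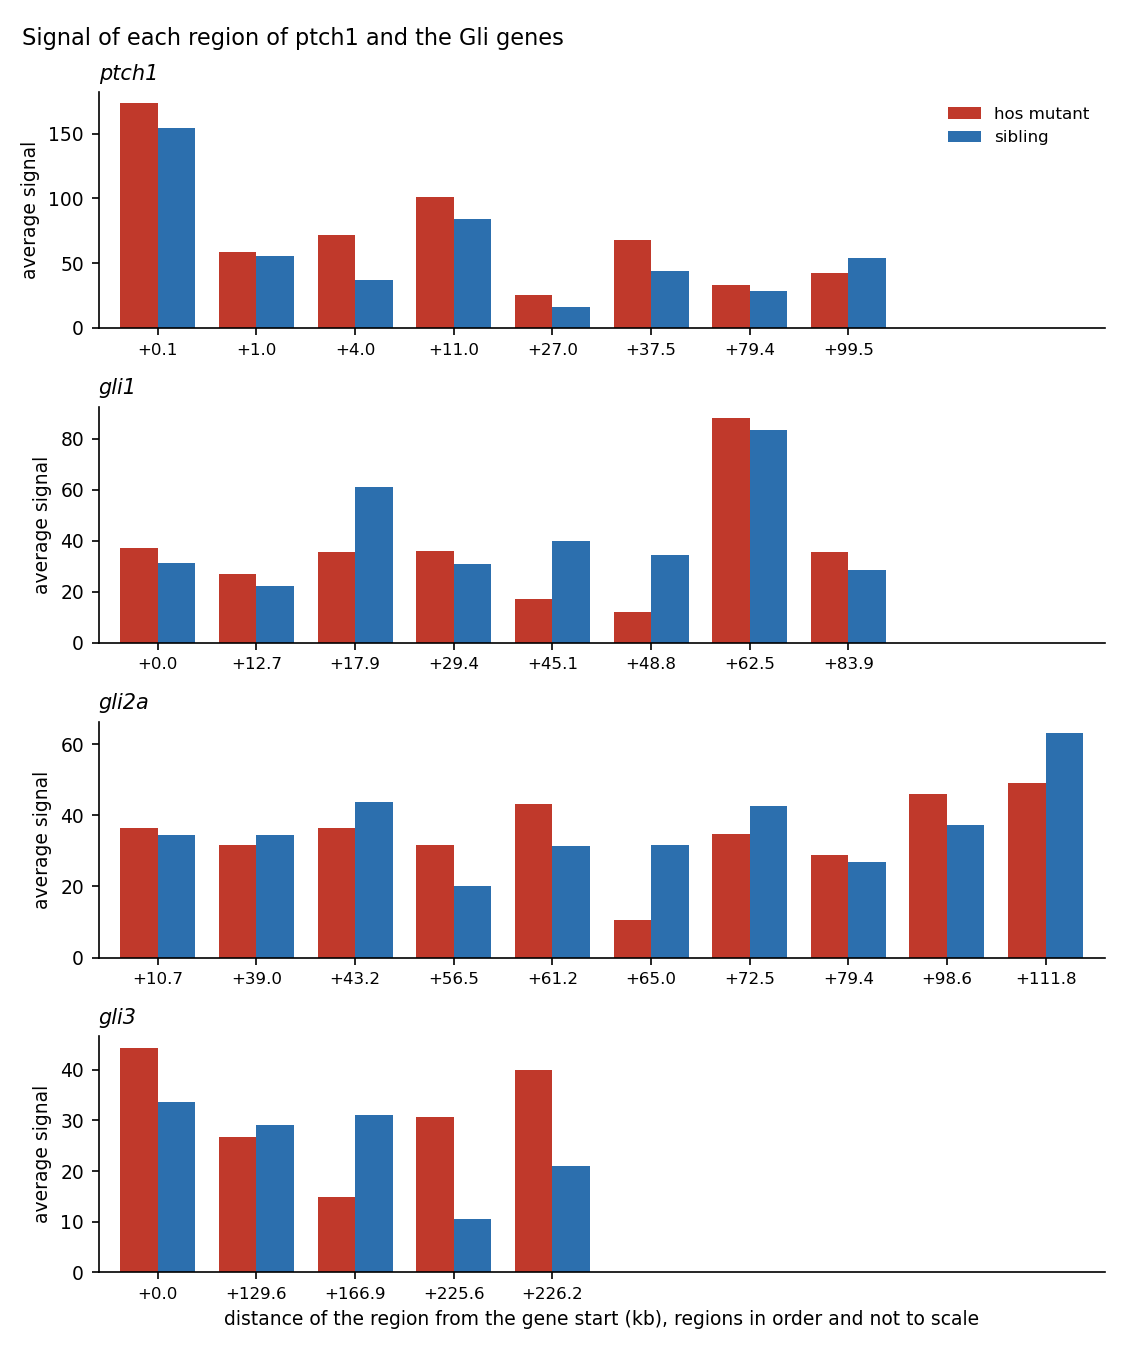
Average signal in the hos mutant library (red, left bar) and the sibling library (blue, right bar) for every region of ptch1, gli1, gli2a and gli3, in order of distance from the gene start in kb and with a separate vertical axis for each gene. The 3 lower gli1 regions, with 35.6, 17.0 and 12.2 in the mutant library, stand beside regions of the same gene that were level or slightly higher.

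The spread of ratios within a gene put the Gli genes and *ptch1* at different ranks. Among the 2723 genes with 5 or more regions the median standard deviation of the log2 ratio was 0.50. It was 0.95 in *gli3* (percentile 97.4), 0.72 in *gli1* (percentile 86.0), 0.59 in *gli2a* (percentile 67.9) and 0.40 in *ptch1* (percentile 31.6). These ranks describe 5 to 10 regions a gene and were not matched on signal. The value of *gli3* includes the regions at 225559 and 226183 bp, which are also assigned to LOC101884290 and had log2 ratios of 1.45 and 0.89. Over all regions the standard deviation was 0.574, and 0.415 over those whose larger signal reached 39.3. Of these genes *ptch1* had the highest median signals, 63.27 in the mutant library and 49.15 in the sibling library. *gli3* had the lowest, 30.7 and 29.14 in that order.

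Inside the Gli genes 4 of 20 regions over 1000 bp from the start were at least 2-fold lower in the mutant (20.0%, 5.73 to 43.7). Over all 29 inner regions of the set there were 4 lower (13.8%, 3.89 to 31.7) and 1 higher (3.45%). Of all gene and region pairs of this place, 7.37% were at least 2-fold lower and 3.6% higher, so the lower calls were more frequent inside genes in the whole table too, and both intervals for the lower share hold the general share. Summed over the 20 Gli regions, there were 1121 tags in the mutant library and 1208 in the sibling library, a fold of 0.928 (0.855 to 1.01) that lies under the common fold. The common fold covers regions of every place, while all pairs of this place had a median log2 ratio of 0.03.

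Calls were spread much as in the whole table. An interval was called in both libraries in 25 of the 39 regions (64.1%), in the mutant alone in 8 (20.5%) and in the sibling alone in 6 (15.4%), against 63.7%, 17.5% and 18.9% of all regions. Of the 6 called in the sibling alone, 4 were at least 2-fold lower in the mutant, against 25.2% of all such regions, and of the 8 called in the mutant alone, 1 was at least 2-fold higher, against 17.6%. In the whole table few regions past 2-fold were called in both libraries. Calls in the sibling alone made up 1971 of 2005 lower regions, and calls in the mutant alone 1277 of 1378 higher ones. Among the 25 Hedgehog regions called in both, likewise, none passed 2-fold. There, *ihha* at its start and *gli1* at 17876 bp were at least 1.5-fold lower (2 of 25, against 2.03% of all regions called in both), and *ptch1* at 37466 bp was at least 1.5-fold higher (1 of 25, against 8.83%).

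The counts past 2-fold depended on the scale. After lowess centring on mean signal, which raises the ratios of the weakest regions, 2 regions were at least 2-fold higher and 2 lower, and over all regions 2094 were higher and 770 lower, against 1378 and 2005 without it. The 2 lower regions that passed then were both in *gli1*, at 45082 and 48764 bp. The 2 higher were *gli3* at 225559 bp (2.13) and *ptch1* at 27038 bp (1.32), the latter from 24 tags in the mutant library and 15 in the sibling library. On peak signal the 2 higher regions were *gli3* at 225559 bp (1.34) and *ihhb* at 21618 bp, which was just at the limit. Over all regions 1345 were higher and 1742 lower on peak signal. In the set, the larger signal of 21 regions reached the median of all regions (39.3). Of these only *gli1* at 45082 bp was at least 2-fold lower, and none was 2-fold higher. Of all 20737 regions at or above this floor, 1.13% were lower and 2.04% higher.

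At the promoters, 4 of 5 genes were near the general offset. The median log2 ratio over the nearest promoter region of each gene was 0.25, equal to the 0.25 of all promoter regions, with *gli3*, *smo*, *gli1* and *ptch1* from 0.39 down to 0.17 and *ihha* at -0.72.

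The other components of the pathway were mostly higher in the mutant library at their starts, as promoters were in general. Of 47 listed symbols 35 were in the table and 27 had a promoter region, with a median log2 ratio of 0.34, 24 above 0 and 3 below, where 77.0% of all promoter regions were above 0. At least 2-fold higher was 1, *stk36*, a kinase gene tied to the pathway, with 50.3 in the mutant library and 19.6 in the sibling library (1.32, called in the mutant alone), and none was 2-fold lower, against 2.16% higher and 0.857% lower of all promoter regions. Over all 121 regions of these genes, 2 were at least 2-fold higher and 3 lower, with a median of 0.26, against 3.32% and 4.83% of all regions.

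Genes for making and releasing the ligand had a median promoter ratio of 0.33 over 6 genes. The highest were *disp2*, of the Dispatched family, at 0.82 and *scube1*, of a family that carries the ligand, at 0.66, and the lowest *scube3* at -0.29 and *hhat*, the enzyme that attaches palmitate to the ligand, at 0.11. *disp1*, which releases the lipid-bound ligand, had 0.44 and *scube2* had 0.22. A region inside *disp1*, 19541 bp from its start, was at least 2-fold lower, with 13.2 in the mutant library and 31.9 in the sibling library. *dhh*, the Desert hedgehog gene, had no promoter region.

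Among receptors and co-receptors the median was 0.21 over 6 genes. The co-receptor genes *gas1a*, *cdon* and *boc* had 0.46, 0.39 and 0.16, *lrp2a* had 0.10, and *gas1b* was the only one under 0, at -0.51. A second *gas1b* region within 1000 bp of the start, at 725 bp, had 0.47 and was called in the mutant alone. A second *gas1a* region, at 654 bp, had -0.17 and was called in the sibling alone. Inside *cdon* a region 61635 bp from the start was at least 2-fold lower (11.6 in the mutant library and 31.1 in the sibling library), and inside *boc* a region at 15998 bp had 53.3 and 27.6 in that order. *hhip*, which codes for a decoy that binds the ligand and is a target of the pathway, had no promoter region. Its 2 regions, at 19679 and 40809 bp, had log2 ratios of -0.48 and -0.77 and were both called in the sibling alone.

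For the intracellular components the median was 0.38 over 15 genes. *sufu*, which holds Gli proteins in the cytoplasm, had 189.5 in the mutant library and 156 in the sibling library (0.28). *kif7*, a ciliary kinesin that regulates Gli processing, had 0.66, *gli2b*, the second Gli2 gene, 0.34, *fbxw11a*, for a ubiquitin ligase subunit, 0.09, and *gpr161*, a ciliary receptor that dampens the pathway, -0.54. Past 2-fold away from promoters were a region inside *csnk1a1*, a casein kinase gene, at 7160 bp (42.6 in the mutant library and 17.3 in the sibling library) and one inside *adrbk2*, a receptor kinase gene, at 11774 bp (18.8 and 47.3 in that order).

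The primary cilium, in which the signal is passed on, was read from 43 symbols, of which 38 were in the table and 34 had a promoter region. Their median log2 ratio was 0.33, with 26 above 0 and 8 below, near the 77.0% above 0 of all promoter regions. Over the 115 regions of these genes 7 were at least 2-fold higher and 4 lower, against 3.32% and 4.83% of all regions. *ift52*, for a subunit of the intraflagellar transport train, was at least 2-fold higher at 1.09, and *tctn1*, of the ciliary transition zone, had 0.80, while *bbs7*, of the BBSome, had -0.76 and *dync2h1*, the motor of retrograde transport, -0.57.

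Genes that respond to Hedgehog signaling in other tissues had a median of 0.55 over 12 promoters, with 9 above 0 and 3 below. Of all promoter regions 77.0% were above 0, with a median of 0.25. At least 2-fold lower was 1 of the 12, and 0 were 2-fold higher, against 0.857% and 2.16% of all promoter regions. The highest were *en2a*, of the Engrailed family, at 0.97 and *foxj1a*, a regulator of motile cilia, at 0.96, and the lowest *foxl1* at -1.23, which was past 2-fold, and *foxa2*, a floor plate and endoderm factor, at -0.35. The *foxl1* value rests on weak signal, 10.4 in the mutant library and 25.7 in the sibling library, and was 0.04 after lowess centring. The lists and their medians describe these genes, and no list was tested against others.

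**Figure D4:**
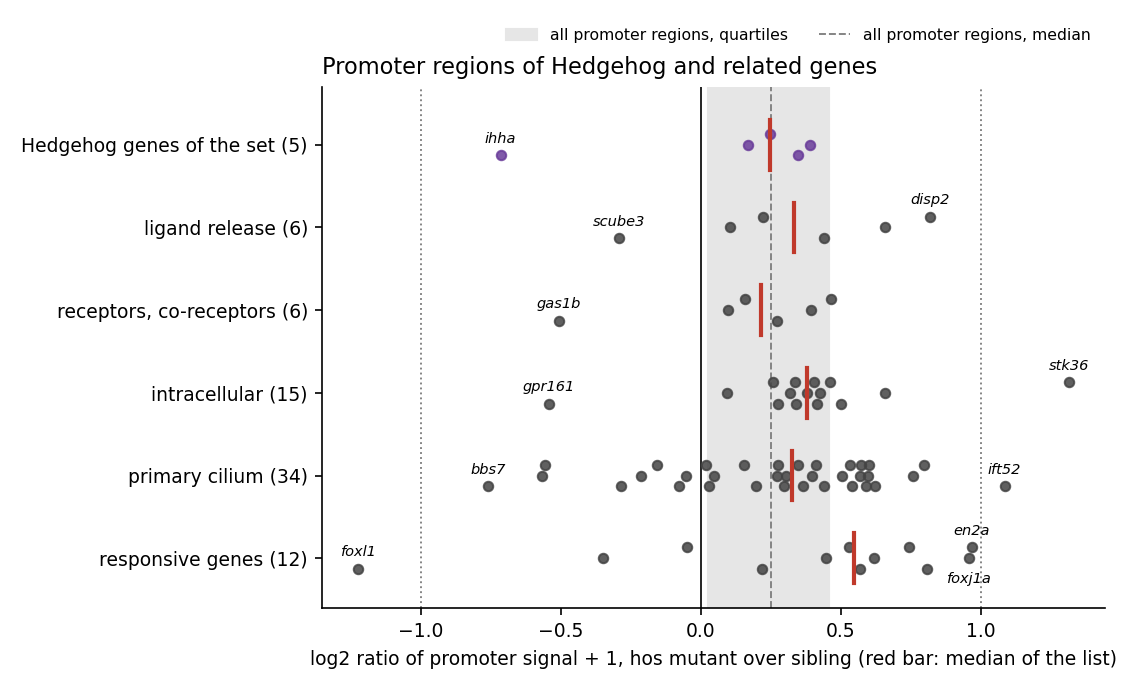
Log2 ratio of promoter signal plus 1, hos mutant over sibling, one point per gene, for the Hedgehog genes and the lists of related genes, with the number of promoters in brackets. Red bars are list medians, the grey band spans the quartiles of all promoter regions around their median (dashed, 0.25), and dotted lines mark 2-fold. Most points of every list lie right of 0, and ihha lies left of the other Hedgehog genes at -0.72.

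Markers of cell types in or near the heart differed between the libraries to unequal degrees. At cardiomyocyte markers 9 of 9 promoter regions were higher in the mutant, against 77.0% of all promoter regions. Their summed signal was 704 in the mutant library and 458 in the sibling library. At least 2-fold higher were 4 of them, against 2.16% of all promoter regions. Among these 4, *vmhcl* and *nkx2.5* were called in the mutant alone. *vmhc* and *actc1a* were not listed. Over all 31 regions of the cardiomyocyte list the median log2 ratio was 0.34, with 5 at least 2-fold higher and 0 lower. Of all regions, 3.32% were higher and 4.83% lower. The 3 endocardial promoters summed to 166 in the mutant library and 131 in the sibling library, the 3 epicardial ones to 81.3 and 106 in that order. Over all 20 regions of the endocardial list the median log2 ratio was -0.04, with 1 at least 2-fold higher and 3 lower. The epicardial promoters differed in sign, with log2 ratios of 0.48 at *wt1a*, -0.62 at *tbx18* and -0.87 at *wt1b*. Over all 13 regions of the epicardial list the median was 0.16. For tissues that use Hedgehog ligands outside the heart, the sums were 291 in the mutant library and 231 in the sibling library over 6 endoderm and gut promoters, 81.8 and 64.4 over 2 cartilage promoters, and 301 and 210 over 3 floor plate and neural promoters. Of the endoderm and gut promoters 3 were above 0 and 3 below, and *pdx1*, a pancreas and gut factor, had 63.1 in the mutant library and 20.8 in the sibling library. The 2 cartilage promoters went opposite ways, *sox9a* at a log2 ratio of 0.95 and *sp7* at -1.05. The 2 skeletal muscle promoters, *mylpfa* and *tnnt3b*, summed to 14.6 in the mutant library and 56.6 in the sibling library. Both were called in the sibling alone, and after lowess centring *mylpfa* had a log2 ratio of -1.13 and *tnnt3b* 0.07. Over all 3 regions of these genes the log2 ratios ran from -2.35 to 0.43. The part of these markers in the values of the Hedgehog genes was not tested.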

How the data were processed

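Per the labels, hearts were dissected and frozen, and ATAC-seq was done by a commercial service. The submitters' processing notes name MACS2 2.1.0 and danRer11, and coordinates are those of the files. How reads were aligned, duplicates handled and libraries scaled is not given in the sources used here. From the called intervals of both libraries the authors made common regions and deposited an average and a peak signal per region and library, with the genes assigned to it. Their deposited log2 ratios and shrunken fold changes were not used.

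Here, log2((mutant + 1)/(sibling + 1)) was computed from the average signal, with no further scaling. Tags were estimated from signal and length and gave each fold an exact binomial 95% interval, which assumes that tags are independent molecules. A gene's promoter region was the nearest within 1000 bp of its start. Regions were counted past 2-fold. All members were described, with the 2 highest and 2 lowest promoters of each further list, those past 2-fold and the core components *hhip*, *sufu*, *kif7*, *disp1*, *scube2*, *cdon*, *boc*, *gas1a*, *gas1b* and *gli2b*. Another core component is not reported here. *dhh* and other inner regions were named after their values were seen. The members and lists were chosen with earlier results of these data known. Alternatives were median and lowess centring (span 0.2), pseudocounts of 0.1 and 5, peak signal, a floor on signal, a 1.5-fold limit and promoter distances of 500 and 2000 bp. The steps were tested on simulated data, with changes larger than those reported placed in strong regions. Tags were drawn from the binomial that the intervals assume. The simulation therefore does not cover 2-fold changes at weak regions. Lowess came from statsmodels 0.14.6 and binomial intervals from scipy 1.17.1, with pandas 2.3.3, numpy 2.4.6 and matplotlib 3.10.9 under Python 3.11.15. Sequences and motifs were not analysed here.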

Additional observations from a re-analysis of the deposited data

How the results depend on the processing

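The median log2 ratio of the Hedgehog regions was 0.17 as computed, 0.01 with the median of all regions set to 0, -0.00 after lowess centring, 0.15 on peak signal, and 0.09 both above the signal floor and over regions assigned to no other gene, an alternative chosen after seeing the data. The number of regions at least 2-fold higher was 1, and became 2 after lowess centring, 2 on peak signal, 7 at a 1.5-fold limit, 0 above the floor and 0 over regions assigned to no other gene. The number at least 2-fold lower was 4, and became 2 after lowess centring, 3 on peak signal, 3 with a pseudocount of 5, 6 at a 1.5-fold limit and 1 above the floor. At the 1.5-fold limit 15.4% of all regions were higher and 12.7% lower. On peak signal 1345 of all regions were at least 2-fold higher and 1742 lower. With a pseudocount of 5 these counts were 784 and 1156 in that order. Above the floor, 2.04% of 20737 regions were higher and 1.13% lower. With the median set to 0 the members' counts stayed at 1 and 4, while over all regions 804 were higher and 2920 lower, and 20 Hedgehog regions were above 0 and 19 below. Of 210 values of single regions under the alternatives, 208 stayed within the counting interval of the region. These include the promoter settings, which picked the same region at all 5 promoters and so could not change its value. They also include the 39 values at each pseudocount, all of which stayed. No region whose interval excluded 1 changed sign. The *ptch1* promoter region became -0.12 after lowess centring and the *ptch1* region at 11013 bp -0.07 on peak signal. The median over member promoters ran from 0.09 to 0.25. No paired analysis was possible because each genotype had 1 library. Regions with 11 to 30 tags in a library have wide intervals, and depth alone limits what their folds show.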
